A study of Homo sapiens with 6 samples.

Results

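The miR-155 and miR-146 miRNAs were examined in TGF-β1-activated LX-2 cells with or without a co-culture of HUC-MSCs, mesenchymal stem cells of the human umbilical cord. LX-2 is an immortal line derived from hepatic stellate cells, the cells that lay down scar tissue in the liver. 5 mature miRNAs were chosen by name: miR-155-5p, miR-155-3p, miR-146a-5p, miR-146b-5p and miR-146b-3p. 4 of them were listed among the 463 distinct mature sequences of the deposited tag tables, and 3 were listed in all 6 libraries. miR-155-3p was not listed in any library. In the co-culture group (3 libraries), the LX-2 cells grew for 48 h in the same medium as HUC-MSCs held on a porous transwell membrane. In the single culture group (3 libraries), the LX-2 cells were kept alone in the lower chamber. Both groups had received TGF-β1 at 10 ng/mL, so no library stands for quiescent cells, and the labels give 24 h of it. All RNA came from 1 cell line, and the sources used here do not say whether the libraries of a group came from separate cultures. The p-values below therefore measure only the spread between these libraries, which may be technical.

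A mature miRNA binds mRNAs mainly through its seed, the bases next to its 5′ end, and lowers their translation and stability. The genes of miR-155 and miR-146a are well-known targets of NF-κB, the transcription factor switched on by cytokine receptors and Toll-like receptors. miR-155-5p, the arm of its hairpin that is usually kept, represses SOCS1 and INPP5D, inhibitors of immune signalling. miR-146a-5p and miR-146b-5p repress IRAK1 and TRAF6, which carry the signal from those receptors to NF-κB, and so act as a feedback brake. In hepatic stellate cells NF-κB activity accompanies activation and supports the survival of the activated cells.

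The mature sequences are shown because the 5 names fall into 4 seeds, and only miR-146a-5p and miR-146b-5p have one in common. Capitals mark the seed, bases 2 to 8 from the 5′ end. The 4 listed sequences are those of the deposited table and were identical to RefSeq, while miR-155-3p is taken from RefSeq alone.
miR-155-5p: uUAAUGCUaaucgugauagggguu
miR-155-3p: cUCCUACAuauuagcauuaaca
miR-146a-5p: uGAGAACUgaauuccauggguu
miR-146b-5p: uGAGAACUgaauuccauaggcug
miR-146b-3p: gCCCUGUGgacucaguucuggu
miR-146a-5p (22 nt) and miR-146b-5p (23 nt) were identical at 20 of 22 aligned positions, counted from 1 at the 5′ end of miR-146a-5p. They differed by G18A and U21C, and miR-146b-5p has 1 more base at its 3′ end. Both differences lie outside the seed, so the tags of the pair can be told apart only near the 3′ end. Of all listed sequences, no other had the seed of a member, and no shortened or lengthened form of a member was listed.

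The hairpins are printed to show the difference in the listed arms, with every arm found in the table in capitals.
MIR146A: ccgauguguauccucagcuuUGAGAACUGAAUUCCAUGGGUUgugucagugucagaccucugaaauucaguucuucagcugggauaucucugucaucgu
MIR146B: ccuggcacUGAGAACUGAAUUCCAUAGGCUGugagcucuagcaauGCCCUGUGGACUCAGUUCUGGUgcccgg
MIR146B gave both of its arms to the table, and MIR146A only its 5p arm. The 3p arm of MIR146B rests on 2 tags in co-culture library 2, the smallest count listed, so this is no measure of arm use. On GRCh38.p14 (RefSeq), the MIR146A hairpin of 99 nt lies at chr5:160485352-160485450 on the plus strand, with miR-146a-5p at chr5:160485372-160485393. In GENCODE release 29 this is within exon 2 of the 2 exons of MIR3142HG, a long noncoding host gene. The MIR146B hairpin of 73 nt lies at chr10:102436512-102436584 on the plus strand and overlaps no other annotated gene. Its nearest protein-coding gene is CUEDC2, 3851 bp away. miR-146b-5p lies at chr10:102436520-102436542 and miR-146b-3p at chr10:102436557-102436578. miR-155-5p lies at chr21:25573983-25574006 on the plus strand and miR-155-3p at chr21:25574022-25574043, within exon 4 of the 4 exons of the MIR155HG transcript MIR155HG-201.

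The promoter of MIR3142HG, from 250 bases before to 50 bases after its start, is shown because it holds the letters of an NF-κB site. It lies at chr5:160468001-160468300 on the plus strand of GRCh38.p14 (RefSeq), and capitals mark the match.
MIR3142HG: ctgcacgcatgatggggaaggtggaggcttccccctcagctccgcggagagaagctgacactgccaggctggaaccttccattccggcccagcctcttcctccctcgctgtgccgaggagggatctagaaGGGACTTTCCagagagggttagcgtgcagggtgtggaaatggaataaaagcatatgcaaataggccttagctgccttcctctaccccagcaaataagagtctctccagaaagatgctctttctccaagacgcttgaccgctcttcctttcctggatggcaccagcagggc
The window was searched on both strands for the NF-κB consensus, and 1 match, GGGACTTTCC, lay 120 bases before the start on the plus strand. The consensus was found in 3956 of 35116 promoters of the same length (11.3%). The exact letters GGGACTTTCC were in 67 of them (0.191%). Those letters were taken from the match itself, so only the share of the consensus serves as a background. The MIR155HG window held no match to the consensus. A match describes letters only, and binding was not measured.

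The libraries were unequal in depth and content, which bears on every level below. They held 325037, 604418 and 421964 tags in co-culture, against 209043, 43956 and 47528 in single culture. miR-21-5p and its length forms took 75.0% to 81.2% of tags in co-culture and 37.1% to 56.4% in single culture, and sequences of 17 to 20 nt took 2.12% to 3.79% in co-culture and 7.56% to 25.7% in single culture. Single culture library 1 stood apart from the other libraries of its group: set against theirs, its counts gave a chi-square per degree of freedom of 101 and 144, against 3.46 between libraries 2 and 3. Co-culture library 1 stood apart from its group to a lesser degree, with 31.3 and 24.6, against 4.17 between co-culture libraries 2 and 3. Results are therefore given without each of these as well. Levels are CPM, tags scaled to a common library size, with library sizes scaled by the trimmed mean of M-values (TMM), over sequences with at least 10 tags in at least 3 libraries. With library size alone as the scale, the median log2 fold change of the 182 tested sequences moved to -1.11, against -0.041 with TMM, so changes are relative to the other sequences. Leaving miR-21-5p forms out of the scaling gave log2 fold changes of 0.60 for miR-155-5p, 0.50 for miR-146a-5p and -0.095 for miR-146b-5p. With only sequences of 21 nt or longer, these log2 fold changes were 0.47, 0.40 and -0.16 in the same order. Apart from these fits, the part of miR-21-5p, of the short sequences and of depth in the results below was not tested.

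miR-155-5p was the member with most tags in 5 of 6 libraries and equalled miR-146a-5p in the sixth. It was counted 279, 389 and 309 times in the co-culture libraries, against 240, 40 and 50 times in the single culture libraries. The widest exact Poisson interval relative to its count was 28.6 to 54.5 tags around the 40 of single culture library 2. On the TMM scale its level was 1081, 1036 and 1096 CPM in co-culture, against 790, 620 and 741 CPM in single culture. On this scale every co-culture library was above every single culture library, an order that flips with library size alone, and the co-culture values lay closer together. The means were 1071 ± 31.2 CPM in co-culture and 717 ± 87.5 CPM in single culture (SD, n = 3 each), a 1.48-fold difference. Its log2 fold change was 0.57 (SE 0.13, 95% interval 0.26 to 0.87), with an adjusted p of 0.0595 from edgeR's quasi-likelihood test, which misses the threshold of 0.05. Without single culture library 1 it was 0.63, with an adjusted p of 0.00651 from edgeR, which passes the threshold. That fit called 43 of 172 sequences, against 8 of 182 with all 6 libraries. It left single culture libraries 2 and 3, with 40 and 50 tags of miR-155-5p. In these, sequences of 17 to 20 nt took 23.4% and 25.7% of tags. With single culture libraries 2 and 3 left out in place of library 1, the log2 fold change was 0.44, which rests on 1 single culture library. Without co-culture library 1 it was 0.55, with an adjusted p of 0.139. In bulk RNA, a different share of cells that hold the miRNA and a different amount of it per cell cannot be told apart.

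miR-146a-5p was the second most abundant member and stood close to miR-155-5p throughout. Its tags numbered 242, 357 and 241 in the co-culture libraries, against 194, 40 and 49 in the single culture libraries. Its TMM-scaled level was 937, 950 and 854 CPM in co-culture, against 639, 620 and 726 CPM in single culture. As for miR-155-5p, every co-culture library was above every single culture library on this scale and below with library size alone. The means were 914 ± 52.1 CPM in co-culture and 661 ± 56.5 CPM in single culture (SD, n = 3 each), a 1.39-fold difference. The log2 fold change was 0.47 (SE 0.12, 95% interval 0.19 to 0.75), with an adjusted p of 0.0609 from edgeR. Leaving out single culture library 1 gave 0.42 with an adjusted p of 0.0504 from edgeR. Leaving out the rest of that group gave 0.52, which rests on 1 single culture library. Without co-culture library 1 the log2 fold change was 0.44 with an adjusted p of 0.172 from edgeR. miR-146a-5p did not pass 0.05 in any of these fits for which an adjusted p is given.

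miR-146b-5p, which has the seed of miR-146a-5p but comes from another chromosome, was far scarcer. Its tags numbered 20, 21 and 18 in co-culture, against 19, 4 and 7 in single culture. With 4 tags the exact Poisson interval runs 1.09 to 10.2, and 1 tag is worth 15.5 CPM in that library, against 2.66 to 3.87 CPM in the co-culture libraries. Its level was 77.5, 55.9 and 63.8 CPM in co-culture, against 62.5, 62.0 and 104 CPM in single culture. The groups overlapped, with single culture library 3 highest of all. The means were 65.7 ± 10.9 CPM in co-culture and 76.1 ± 23.9 CPM in single culture (SD, n = 3 each). The log2 fold change was -0.13 (SE 0.42, 95% interval -1.12 to 0.87, adjusted p = 0.882 from edgeR), and it was 0.055 without single culture library 3. Without library 1 of single culture it was -0.38, and without library 1 of co-culture -0.27. A difference of the size seen for miR-155-5p or miR-146a-5p would lie within that interval and was not detectable at this depth.

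**Figure D1:**
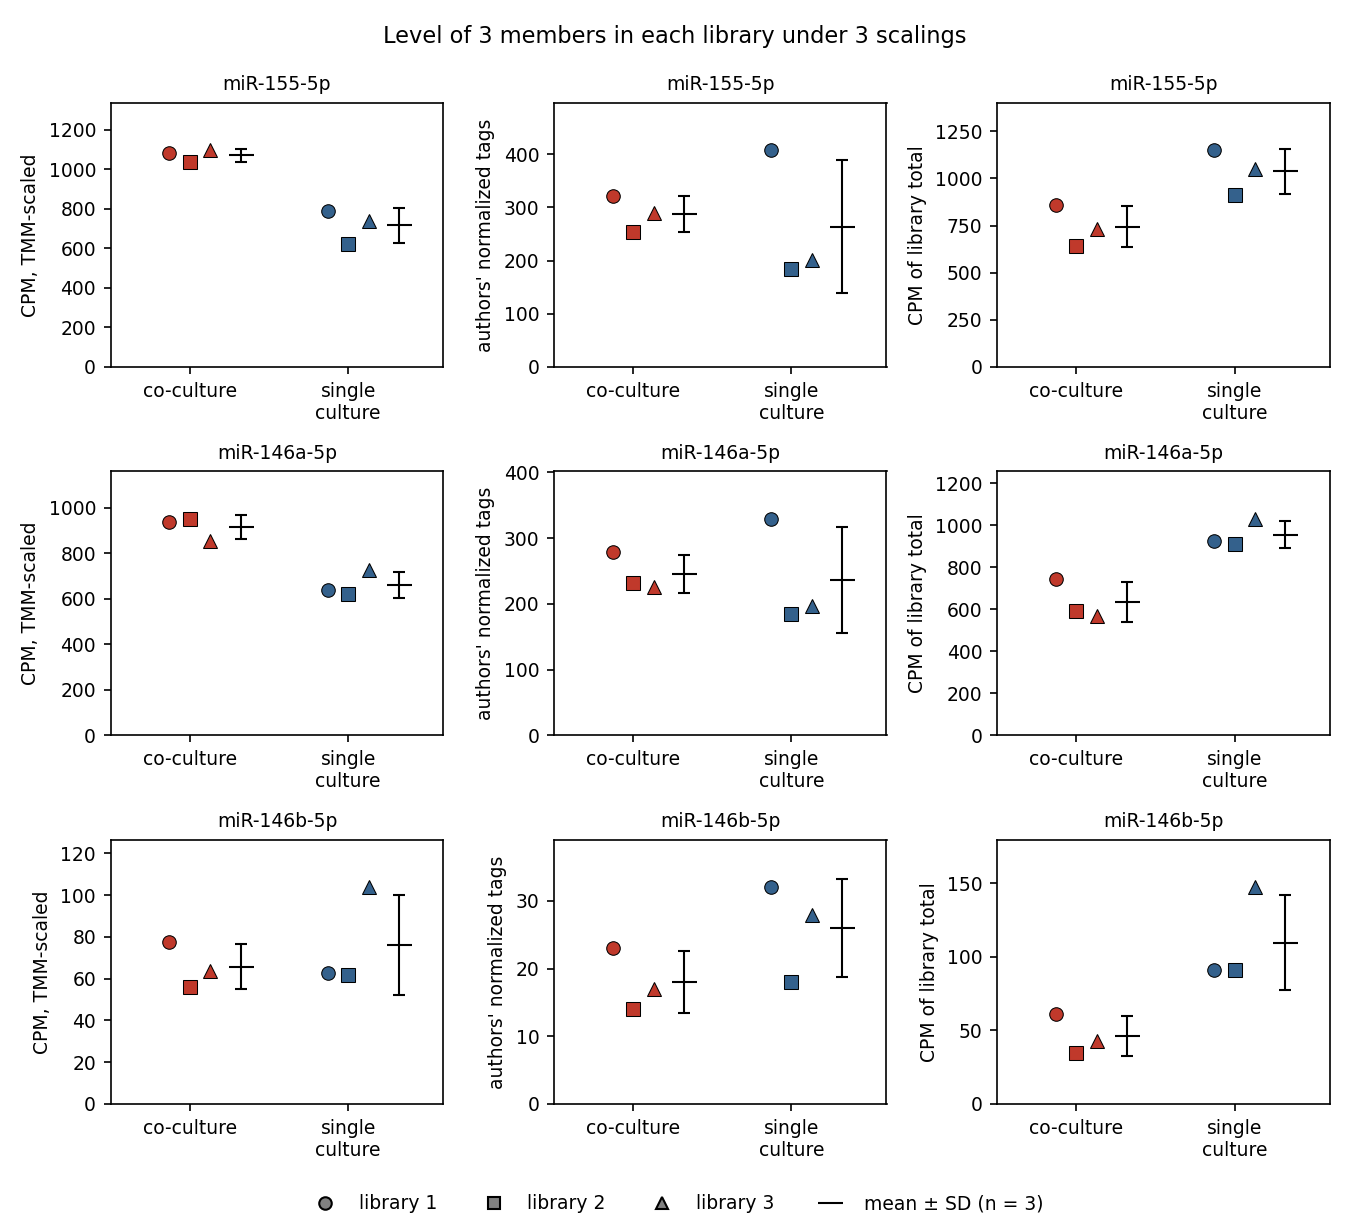
Level of miR-155-5p, miR-146a-5p and miR-146b-5p in each library (1 symbol per library, co-culture left in red, single culture right in blue, bars mean ± SD, n = 3), as TMM-scaled CPM, the authors' normalized tags and CPM of the library total. miR-155-5p and miR-146a-5p lie above single culture in every co-culture library in the left column, overlap in the middle column and lie below in every co-culture library in the right column, so their direction flips with library size alone.

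The direction of the difference depended on the scale. The log2 fold changes of miR-155-5p and miR-146a-5p were positive with TMM but flipped to -0.49 and -0.59 with library size alone (adjusted p = 0.0386 and 0.0154 from edgeR). In that fit 139 of all 182 tested sequences were called lower. The median log2 fold change over all was -1.11, so both members lay above it. As plain CPM of the library total, miR-155-5p was at 858, 644 and 732 in co-culture, against 1148, 910 and 1052 in single culture. In the authors' normalized tags it was at 321, 253 and 289 in co-culture, against 407, 184 and 201 in single culture, where single culture library 1 was highest of the 6. With the authors' scaling as library sizes, the log2 fold changes were 0.10 for miR-155-5p, 0.035 for miR-146a-5p and -0.65 for miR-146b-5p.

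A further scale is the share of known-miRNA tags other than miR-21-5p forms. On it, miR-155-5p took 0.476%, 0.431% and 0.499% in co-culture, against 0.363%, 0.323% and 0.390% in single culture. miR-146a-5p took 0.413%, 0.395% and 0.390% in co-culture, against 0.293%, 0.323% and 0.382% in single culture. miR-146b-5p took 0.0341%, 0.0233% and 0.0291% in co-culture, against 0.0287%, 0.0323% and 0.0546% in single culture. For miR-155-5p and miR-146a-5p, every co-culture library was again above every single culture library, unlike with library size alone, though by little between co-culture library 3 and single culture library 3 for miR-146a-5p. Ranked by tags among known miRNAs, miR-155-5p stood at 23, 26 and 24 in co-culture and at 32, 38 and 33 in single culture. miR-146a-5p ranked 27, 27 and 29 in co-culture and 36, 38 and 34 in single culture. miR-146b-5p ranked 105, 117 and 116 in co-culture and 113, 119 and 96 in single culture. These ranks rest on lists of 243 to 282 known miRNAs in co-culture and 170 to 273 in single culture. The 4 listed members together made up 0.127% to 0.166% of all tags in co-culture and 0.191% to 0.223% in single culture.

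Among the members that could be tested, 0 of 3 passed an adjusted p of 0.05 in edgeR, while 2 of 3 had an unadjusted p under 0.05. DESeq2 called 0 of 3, against 22 of 182 over all sequences (12.1%). It had 2 of 3 under an unadjusted p of 0.05, against 37 of 182 over all. With limma on the authors' normalized values, 0 of 3 were called, against 18 of 182 (9.89%). Under that unadjusted p limma had 0 of 3, against 35 of 182. Over all 182 tested sequences, edgeR called 8 (4.4%), and 46 (25.3%) had an unadjusted p under 0.05. The levels of 2 of 3 members did not overlap between groups, compared with 65 of 182 sequences (35.7%). In the direction of higher in co-culture, which flips with library size alone, it was 2 of 3 members and 36 of 182 sequences (19.8%). With only 3 members tested, these shares cannot be set apart from the background. By p, miR-155-5p ranked 10, miR-146a-5p 15 and miR-146b-5p 156 of 182. The other 2 members did not pass the minimum count, so the 3 tested do not stand for all 5.

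**Figure D2:**
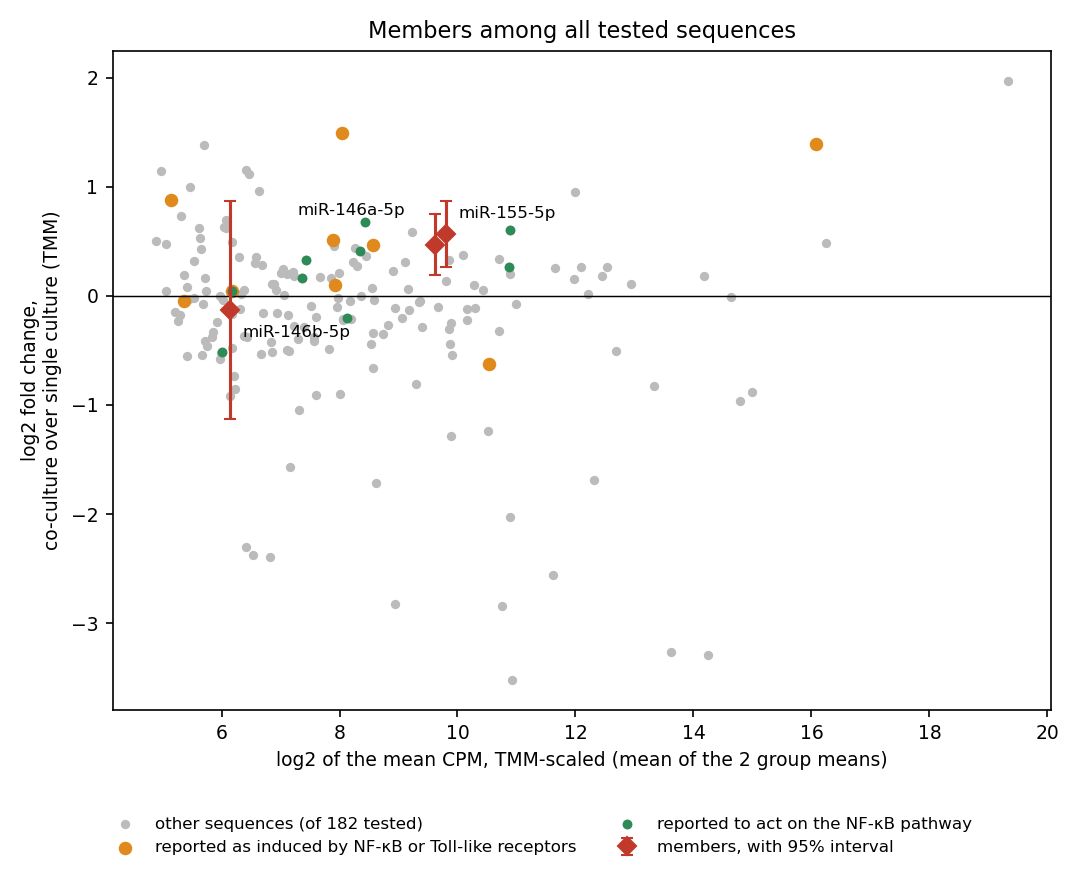
Log2 fold change of co-culture over single culture (TMM) against the log2 of mean CPM for the 182 tested sequences (grey points), with the members in red (95% intervals) and related miRNAs in orange and green. miR-155-5p (0.57) and miR-146a-5p (0.47) have intervals above 0 on this scale, which flip to negative values with library size alone, while the interval of miR-146b-5p spans 0.

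Ratios of members within a library do not depend on the scale. Of 5 ratios planned, 3 could be formed in all 6 libraries. miR-146a-5p had 12.1, 17.0 and 13.4 tags per tag of miR-146b-5p in co-culture, against 10.2, 10.0 and 7.0 in single culture. The groups did not overlap, and the mean log2 ratio was higher in co-culture by 0.65 (3.81 ± 0.25 in co-culture and 3.16 ± 0.31 in single culture, SD, n = 3 each). miR-155-5p had 13.95, 18.5 and 17.2 tags per tag of miR-146b-5p in co-culture, against 12.6, 10.0 and 7.14 in single culture, a difference of 0.77 on the log2 scale. Each of these differences had p = 0.1 in a two-sided exact permutation test (adjusted 0.15 over 3 ratios), the smallest p that 3 against 3 libraries allow, so neither could pass 0.05. The values of single culture libraries 2 and 3 rest on 4 and 7 tags of miR-146b-5p. With those libraries left out, the log2 differences were 0.46 and 0.38 with no test, and without single culture library 1 they were 0.74 and 0.96. Without co-culture library 1 they were 0.75 and 0.88. The ratio of miR-155-5p to miR-146a-5p was 1.15, 1.09 and 1.28 in co-culture, against 1.24, 1.00 and 1.02 in single culture. Here the groups overlapped, with a log2 difference of 0.12 (exact permutation p = 0.4, adjusted 0.4), which turned to -0.078 with single culture libraries 2 and 3 left out.

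**Figure D3:**
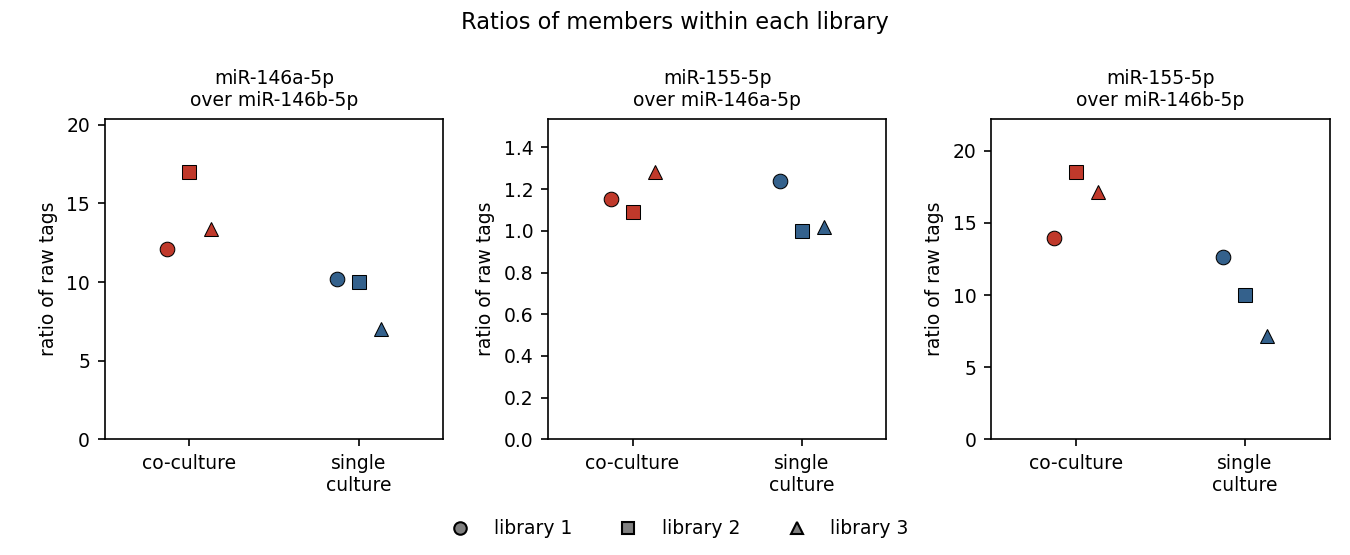
Ratio of raw tags of 2 members within each library (1 symbol per library, co-culture left in red, single culture right in blue). Both ratios over miR-146b-5p are higher in every co-culture library (12.1 to 17.0 and 13.95 to 18.5) than in single culture (7.0 to 10.2 and 7.14 to 12.6), while the ratio of miR-155-5p to miR-146a-5p stays between 1.00 and 1.28 with overlapping groups.

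The same relation can be read as the part of the miR-146-5p seed pool that came from MIR146B. miR-146b-5p made up 7.63%, 5.56% and 6.95% of the miR-146a-5p and miR-146b-5p tags in co-culture, against 8.92%, 9.09% and 12.5% in single culture. Over the pooled tags it was 59 of 899 in co-culture (6.56%, exact Clopper-Pearson 95% interval 5.03% to 8.38%) and 30 of 313 in single culture (9.58%, interval 6.56% to 13.4%). These intervals cover counting error only and overlap each other. The summed level of both miRNAs was 1015, 1006 and 918 CPM in co-culture, against 701, 682 and 829 CPM in single culture on the TMM scale. The means of the sum were 980 ± 53.5 CPM in co-culture and 737 ± 80.3 CPM in single culture (SD, n = 3 each), so miR-146a-5p set the size of the pool in both groups.

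The opposite arms were at or under the limit of listing. The smallest count in the table was 2, so a blank stands for at most 1 tag. miR-146b-3p was listed only in co-culture library 2, with 2 tags (5.32 CPM) beside 21 tags of miR-146b-5p, which is 8.70% of the tags of that hairpin (exact Clopper-Pearson 95% interval 1.07% to 28.0%). If every blank stood for 1 tag, its pooled share would be 6.35% in co-culture and 9.09% in single culture. miR-155-3p, which was listed nowhere, would in that case make up 0.306% of the MIR155 tags in co-culture and 0.901% in single culture. No difference between groups in the use of arms was detectable at this depth.

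Over the 6 libraries miR-155-5p and miR-146a-5p varied together (Pearson r of log2 CPM 0.911), while miR-146b-5p followed neither (r of -0.19 with miR-155-5p and -0.058 with miR-146a-5p). These correlations describe 6 libraries in 2 groups that have depth and scaling in common, and they include the difference between the groups. Of 141 other known miRNAs compared, miR-155-5p was most like miR-21-3p (0.972), miR-10a-5p (0.964) and miR-21-5p (0.945). miR-146a-5p was most like miR-31-5p (0.994), miR-30a-5p (0.946) and miR-222-3p (0.926). miR-146b-5p was most like miR-543 (0.975), miR-539-3p (0.832) and miR-96-5p (0.815). The first 2 members thus fell beside miRNAs whose levels, on the TMM scale, did not overlap between groups. The 3 most like miR-146b-5p had overlapping groups, as it did itself.

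Other miRNAs tied to NF-κB were read from a pair of lists. Both lists were chosen with earlier results of these data known, so their counts beside the background are a description and no test. Of 15 miRNAs reported to be induced by NF-κB or Toll-like receptor signalling, 10 were listed and 9 tested. 2 of these were higher in co-culture past an adjusted p of 0.05, 1 was lower and 6 did not pass, compared with 4 higher and 4 lower of all 182 sequences (4.4% called). The higher ones both come from the MIR21 hairpin: miR-21-5p (22 nt) had a log2 fold change of 1.39 (SE 0.21, adjusted p = 0.0176 from edgeR) and miR-21-3p one of 1.50 (SE 0.19, adjusted p = 0.00737). Both kept a positive sign under all 19 alternatives, and they passed in 11 and 15 settings, this fit included. A more abundant miR-21-5p form of 23 nt, a separate sequence outside the list, had a log2 fold change of 1.97 (adjusted p = 0.00737 from edgeR). miR-221-3p, known for repressing the cell cycle inhibitor CDKN1B, was lower, with a log2 fold change of -0.62 (SE 0.11, adjusted p = 0.0279 from edgeR) and a negative sign under all 19. It passed in 10 settings, this fit included. Its cluster partner miR-222-3p, which has the same known target, had a log2 fold change of 0.52 (adjusted p = 0.104 from edgeR), which flipped to -0.54 with library size alone. With TMM, 7 of the 9 tested had a positive value and 2 a negative one, and their median was 0.47. Of all 182 sequences, 83 had a positive and 99 a negative value, and the median was -0.041. With library size alone, 2 had a positive and 7 a negative value, and the median was -0.60, against -1.11 over all. DESeq2 called 3 of the 9, beside 12.1% of all sequences, and limma 1 of the 9, beside 9.89%.

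Of 16 miRNAs reported to act on parts of the NF-κB pathway, 14 were listed and 9 tested, and 0 passed in edgeR. 3 of the 9 had an unadjusted p under 0.05, beside 25.3% of all sequences. DESeq2 called 1 of the 9, beside 12.1% of all, and limma 0, beside 9.89%. These counts are near the background. The smallest p-values belonged to miR-10a-5p, reported to repress activators of NF-κB in endothelium, and miR-30e-3p, reported to repress an NF-κB inhibitor in glioma cells. Their log2 fold changes of 0.61 and 0.68 (adjusted p = 0.0609 each from edgeR) flipped to -0.45 and -0.39 with library size alone. miR-23a-3p (0.42) and miR-125a-5p (-0.52) followed, with adjusted p-values of 0.115 and 0.295 from edgeR. Over the 9 tested, 7 values were positive and 2 negative with TMM (median 0.26), beside 83 and 99 over all sequences. With library size alone, 0 were positive and 9 negative (median -0.79), beside 7 and 175 over all. miR-9-5p belongs to both lists and was at 72.2 ± 8.26 CPM in co-culture and 71.8 ± 44.1 CPM in single culture (SD, n = 3 each).

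miR-155 and miR-146a are abundant in blood cells, so markers of other cell types were counted. None of 7 blood cell markers was listed in any library, among them miR-142-3p, miR-223-3p, miR-150-5p and miR-451a. Likewise 0 of 3 hepatocyte markers, miR-122-5p among them, and 0 of 4 epithelial markers were listed. The 2 endothelial miRNAs, both from MIR126, summed to 186 to 255 CPM in co-culture and 124 to 174 CPM in single culture. Of 6 miRNAs of fibroblasts and stellate cells, 5 were listed, led by miR-21-5p and miR-143-3p, but miR-199a-5p, miR-199a-3p and miR-145-5p had at most 8 tags in a library and miR-214-3p was not listed. Their sum, mostly the 22 nt miR-21-5p and without its 23 nt form, was 88430 to 110309 CPM in co-culture and 34792 to 50080 CPM in single culture. miR-143-3p, the other of the 2 tested, was at 906, 825 and 847 CPM in co-culture, against 780, 2417 and 2977 CPM in single culture, so that the groups overlapped through single culture library 1. Its log2 fold change was -1.23 (SE 0.45, adjusted p = 0.144 from edgeR), and limma called it lower. The part of these in the levels of miR-155-5p and miR-146a-5p was not tested.

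**Figure D4:**
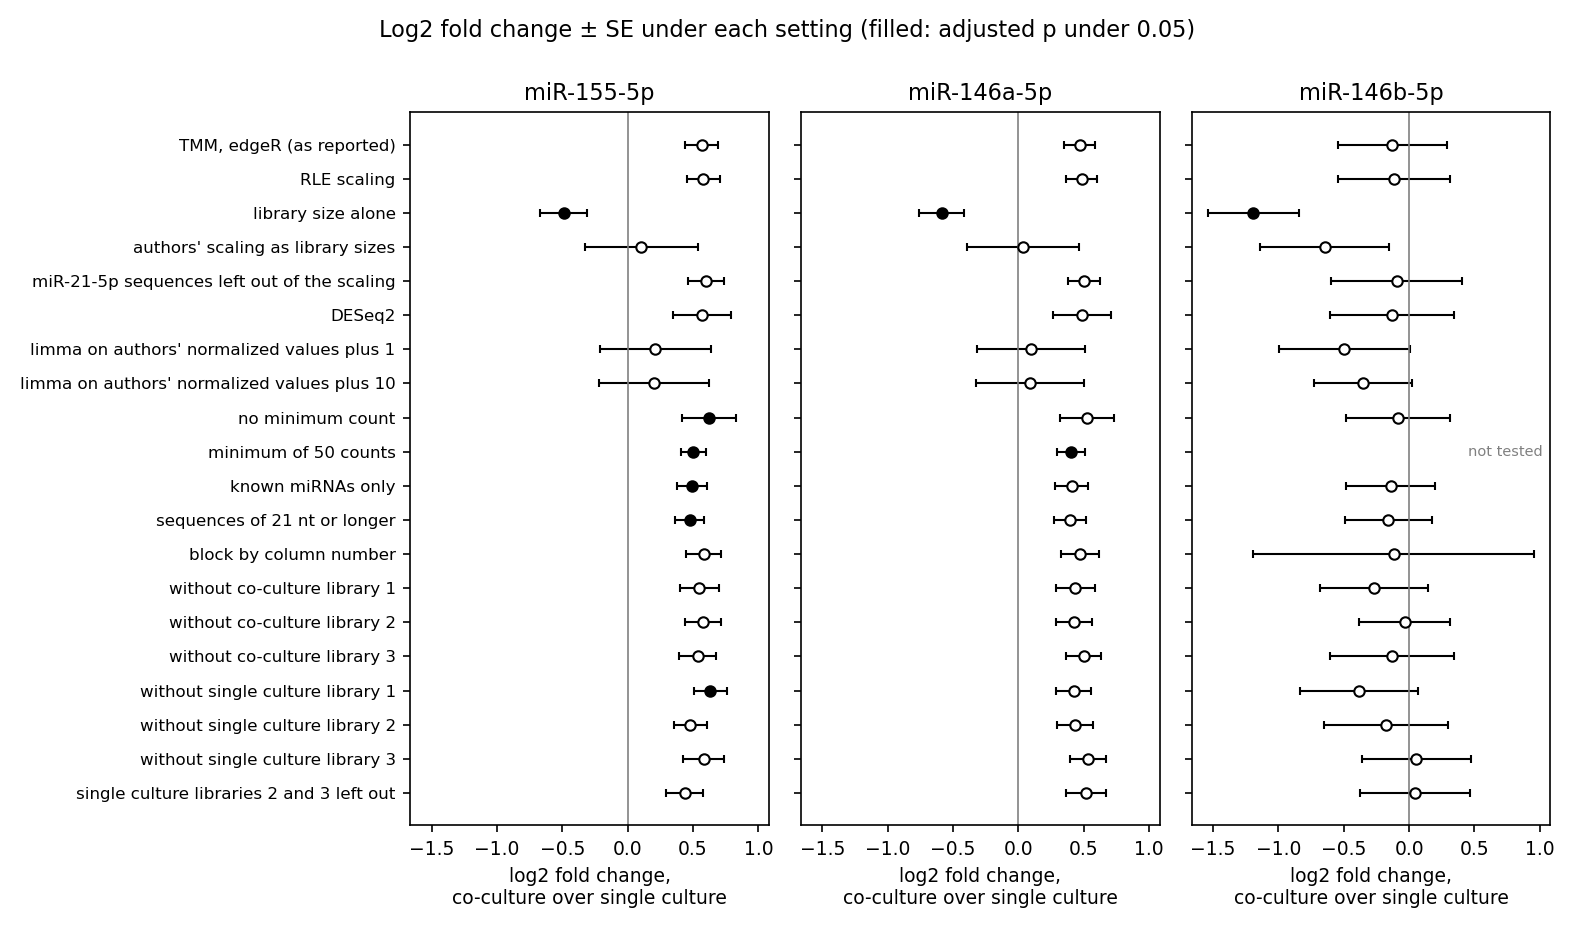
Log2 fold change of co-culture over single culture with its SE for each of 3 members (panels) under each setting (rows), filled where the adjusted p was under 0.05. miR-155-5p stays near 0.44 to 0.63 in the fits with TMM or RLE scaling and with DESeq2, and miR-146a-5p near 0.40 to 0.54. Both are smaller with the authors' scaling as library sizes (0.10 and 0.035) and with limma on the authors' normalized values plus 1 (0.21 and 0.096). Both flip below 0 with library size alone.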

How the data were processed

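Small RNA libraries of LX-2 cells, 3 per group, were sequenced by the authors. They deposited raw tag counts per miRNA and normalized tag counts, a score whose scale is not stated. A further table holds their group means, fold changes and p-values, and only its means were used. Bowtie 0.12.2 and the builds hg18 and mm8 are named in the submitters' processing notes. The methods give 48 h of TGF-β1, and the labels 24 h.

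The columns are numbered and carry no sample title. Each was given a group, but no sample, through the authors' named means. The means of these columns, with blanks as 0 and the authors' constant added, equal them in 520 of 520 rows (relative tolerance 1e-05). Those of the other group's columns do so in 14. There were 0 unassigned columns. Rows were merged by sequence (463). No libraries of the same group were duplicates (chi-square per degree of freedom 3.46 to 144), and libraries of different groups were not compared in this way.

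Counts were compared with edgeR 4.0.16 in R 4.3.3: TMM, at least 10 counts in 3 libraries, quasi-likelihood test, Benjamini-Hochberg over 182 sequences. DESeq2 1.42.0 and limma 3.58.1 (pseudocounts 1 and 10, log2 scale) were alternatives, with other scalings, filters and left-out libraries. The fit was tested on simulated data. Ratios used exact permutation tests. Members and lists were chosen with earlier results of these data known. Named miRNAs were the members, list members past adjusted p 0.05 or among the 4 smallest p of a list, and the 3 most correlated with each member.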

Additional observations from a re-analysis of the deposited data

How the results depend on the processing

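Adjusted p-values here are from edgeR unless another tool is named. Scaling changed most. With library size alone, miR-155-5p turned to -0.49 and miR-146a-5p to -0.59, miR-146b-5p at -1.19 passed the threshold (adjusted p = 0.0154), and 140 sequences passed in place of 8. The cause was not tested. Over the alternatives the adjusted p ran 0.00651 to 0.883 for miR-155-5p and 0.0154 to 0.945 for miR-146a-5p. The 0.0154 belongs to the negative value with library size alone, and the smallest with a positive value was 0.0478. miR-155-5p passed with no minimum count (0.62, adjusted p = 0.0376), a minimum of 50 (0.50, 0.0182), known miRNAs only (0.49, 0.0361) and sequences of 21 nt or longer (0.47, 0.0342). In the same order, these fits called 37 of 463, 21 of 96, 8 of 144 and 10 of 154 sequences. miR-146a-5p passed with the minimum of 50 (0.40, 0.0478), which leaves fewer sequences to test and none for miR-146b-5p. Single culture libraries 2 and 3 left out together turned miR-146b-5p to 0.047 and the log2 ratio of miR-155-5p to miR-146a-5p to -0.078, with 13 sequences past the threshold.

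Sequences past the threshold numbered 21 with the authors' scaling, 22 with DESeq2, 18 and 20 with limma (pseudocounts 1 and 10), 37 with no minimum and 21 with a minimum of 50. Leaving out each library gave 0 to 43 of them: 0 without co-culture library 2 or 3, 5 without co-culture library 1, 43, 2 and 3 without single culture library 1, 2 and 3. In the same fits miR-155-5p ran 0.48 to 0.63, miR-146a-5p 0.42 to 0.54 and miR-146b-5p -0.38 to 0.055, the last positive only without single culture library 3. The log2 ratios ran 0.47 to 0.75 for miR-146a-5p over miR-146b-5p, 0.55 to 0.96 for miR-155-5p over miR-146b-5p and 0.053 to 0.21 for miR-155-5p over miR-146a-5p.

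The column numbers share no stated pairing, and same-numbered libraries deviated apart (r of -0.36, -0.12 and -0.22). A replicate block by number gave 0.58 for miR-155-5p, 0.47 for miR-146a-5p and -0.12 for miR-146b-5p, with 0 sequences past the threshold in edgeR, and left the 3 ratio differences at 0.65, 0.12 and 0.77. Counts of 4 to 19 tags limit what can be said of miR-146b-5p in single culture.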
